A study of Mus musculus with 16 samples.

Results

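The difference between the responses of the 2 conventional dendritic cell subsets of the mouse spleen to granulocyte-macrophage colony-stimulating factor (GM-CSF) was examined. For each gene the GM-CSF effect in type 2 conventional dendritic cells (cDC2s) was subtracted from that in type 1 cells (cDC1s), so the comparison rests on 8 of 16 libraries, 2 in each of 4 groups. All mice were C57BL/6 and 12 weeks old, with no engineered allele named in the labels. The GM-CSF cDC1s and GM-CSF cDC2s came from mice given 3 daily injections of GM-CSF, and the control cDC1s and control cDC2s came from control mice, for which the labels name no injection. The cells were sorted from CD11c-high MHC class II-positive splenocytes, cDC1s as XCR1-positive 33D1-negative and cDC2s as XCR1-negative 33D1-positive cells. The other 8 libraries (2 each of P-I, P-III, P-IV and GM-CSF DC-Xs, as the labels call these populations) entered only the estimate of the spread. Each group has 2 libraries (n = 2), from separate mice by the methods. The p-values therefore reflect the spread between few samples, pooled within groups over all 16 libraries and not over the 8 cDC libraries alone. RNA came from sorted bulk populations, in which fewer expressing cells and less RNA per cell cannot be told apart.

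GM-CSF signals through a receptor of a private alpha chain (Csf2ra) and a beta chain (Csf2rb) that engages JAK2 and STAT5, and feedback comes from the CIS and SOCS proteins. Both cDC subsets arise from dividing precursors under FLT3 ligand. The cDC1s depend on Irf8 and Batf3 and cross-present antigen to CD8+ T cells, while the splenic cDC2s depend on Irf4 and Notch2 and present mainly to CD4+ T cells. Mitotic genes are transcribed late in the cell cycle through the CHR and CCAAT elements of their promoters, and DNA replication genes earlier, through E2F sites.

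The genes of the sort gates followed the labels. Xcr1 was at 188 and 235 FPKM (fragments per kilobase of transcript, scaled to library size) in the control cDC1 libraries and 170 and 258 in the GM-CSF cDC1 libraries, and at 0.442 to 1.69 in the 4 cDC2 libraries. Clec4a4, which encodes the 33D1 antigen, was at 151 and 151 FPKM in control cDC2s and 77.5 and 72.2 in GM-CSF cDC2s, and was listed at 0 in 3 of the 4 cDC1 libraries. The control cDC1 libraries stood apart in transcript length. Genes with transcripts of under 1500 nt took 49.9% and 58.6% of their FPKM, against 40.5% and 42.5% in GM-CSF cDC1s and 32.4% to 38.3% in the 4 cDC2 libraries. The log2(FPKM + 1) deviation of each library from the gene's mean over all 16 libraries was also set against transcript length. This deviation fell with length in the control cDC1 libraries, with a rank correlation of -0.357 and -0.351. The other 6 cDC libraries were at 0.0255 to 0.237. Replicates correlated with an r of 0.947 to 0.962 in the 4 cDC groups, against 0.99 to 0.996 in P-IV, P-III and P-I.

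GM-CSF acted unlike in the 2 subsets on a minority of genes. The difference of effects passed the test, a limma adjusted p under 0.05 and a size of at least 1 on the log2(FPKM + 1) scale, for 775 of 11335 genes (6.84%). The effect was higher in cDC1s for 481 genes (4.24%) and lower for 294 (2.59%), beside a median of 0.14 over all genes (-0.03 with quantile normalization). At an unadjusted p under 0.05 the count was 3183. The effect itself passed in cDC1s for 1678 genes (14.8%) and in cDC2s for 598 (5.28%). Both effects passed for 146 genes, and 142 of these moved the same way. Across all genes tested the effects of the 2 subsets correlated with an r of 0.286 and a rho of 0.247, or an r of 0.346 once the trend of each library on transcript length had been removed, where genes are not independent replicates. These counts lean on the spread of all 16 libraries. In a fit of the 8 cDC libraries alone 2 differences passed and 1730 had an unadjusted p under 0.05. Each of the 775 was among the 1730. That is no separate support, since both fits take the difference from the same 8 libraries. The count was 2419 without control cDC1s replicate 1, 422 without control cDC2s replicate 1, 383 and 417 when replicate 1 or replicate 2 of the GM-CSF cDC1s was left out, and 478 and 286 when that of the GM-CSF cDC2s was.

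**Figure D1:**
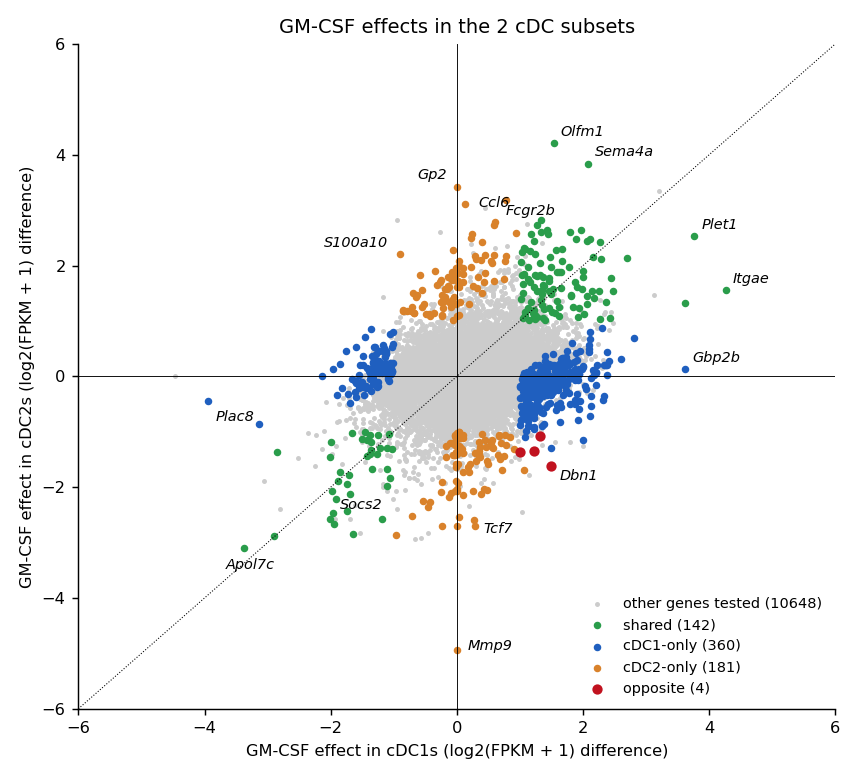
GM-CSF effect in cDC1s (x axis) against that in cDC2s (y axis), each as a difference of mean log2(FPKM + 1), 1 point a gene, over the 11335 genes tested. Genes on the dotted line changed alike. The 142 shared genes lie where both effects have the same sign, on either side of the line, the 360 cDC1-only and 181 cDC2-only genes lie away from it, and the 4 opposite genes lie at the lower right.

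Each gene was placed in a class by its 2 effects and by their difference. A response was shared when both effects passed in the same direction (142 genes, 1.25%). It was cDC1-only when the effect passed in cDC1s and not in cDC2s and the difference passed too (360 genes, 3.18%), and cDC2-only in the reverse case (181 genes, 1.6%). It was opposite when both effects passed with unlike signs (4 genes, 0.0353%). A call in 1 subset alone was not enough, since for 1172 further cDC1 calls and 271 further cDC2 calls the difference did not pass. For another 224 genes the difference passed and neither effect did.

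The shared class held mostly genes that rose, 105 against 37 that fell, and made up 8.46% of the cDC1 calls and 23.75% of the cDC2 calls. Mitotic genes were prominent in it, with 18 members of a list of 36, beside 1.25% of all genes. For 21 of the 142 genes, 14 higher and 7 lower, the 95% interval of the difference lay inside -1 to 1, so for the others responses of unlike size remain possible. Other members of the gene lists in this class, named with their values known, were Ccr7, Il1b, Clec10a, Tlr2, Adgre1 and Ccnd1. Socs2 and Itgae, described below, were list members too. Ccr7, the receptor that guides dendritic cells to T cell zones, fell from 250 and 267 FPKM to 36.2 and 132 in cDC1s and from 423 and 590 to 161 and 112 in cDC2s. Clec10a, a lectin gene, rose from 0.0259 and 0.134 to 3.79 and 3.56 and from 0 and 0.354 to 8.07 and 3.66. The cytokine gene Il1b fell in both, and Tlr2 and Adgre1, the F4/80 gene, rose by 1.09 to 1.24. The class fell to 78 genes without control cDC2s replicate 1 and to 69 without GM-CSF cDC2s replicate 2.

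Socs2, a feedback inhibitor of cytokine receptors that signal through STAT5, fell in both subsets. It was at 9.62 and 10.3 FPKM in control cDC1s and 0.607 and 3.86 in GM-CSF cDC1s, and at 14.9 and 14.9 in control cDC2s and 2.3 and 3.39 in GM-CSF cDC2s. The treated libraries lay below the control libraries in each subset, which was a condition for naming it. The effects were -1.97 and -2.06 on the log2 scale, with a difference of 0.09 (95% interval -1.29 to 1.46). Apol7c, of the apolipoprotein L family, fell from 702 and 332 FPKM to 35.2 and 58.8 in cDC1s and from 123 and 110 to 8.29 and 19.4 in cDC2s. Its effects were -3.38 and -3.09, and how reads were split among the similar Apol7 genes is not given in the sources used here. H2-M2, a non-classical MHC class I gene, Anxa3, which encodes an annexin, Nudt17, a nudix hydrolase gene, and Eno3, an enolase gene, also fell in both, with cDC1 effects of -1.94 to -2.89 and cDC2 effects of -2.47 to -2.87.

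Among the genes that rose in both subsets, Plet1 and Bco2 are neighbours on chromosome 9 (chr9:50494525-50505639 and chr9:50533087-50555214, build GRCm38). Plet1, which encodes a surface protein, rose from 0.687 and 0.714 FPKM to 45.6 and 10.49 in cDC1s, and from 0 in both libraries to 8.53 and 2.52 in cDC2s. Bco2, which encodes a carotenoid-cleaving enzyme, rose from 6 and 2.02 to 20.4 and 18.8 in cDC1s and from 7.86 and 3.88 to 33.4 and 23.6 in cDC2s. Its 2 effects were 2.16 and 2.15, with a difference of 0.01 (95% interval -1.13 to 1.16). Cdc25b, the phosphatase that activates CDK1, Nek2, a centrosome kinase gene, and Kif20a, a kinesin gene of cytokinesis, rose by 2.06 to 2.70 in cDC1s and by 2.13 to 2.45 in cDC2s.

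For 6 shared genes the difference passed as well, so both subsets moved the same way by unlike amounts. Olfm1, which encodes a secreted olfactomedin, rose from 110 and 76.7 FPKM to 234 and 306 in cDC1s and from 4.94 and 6.41 to 107 and 139 in cDC2s. The cDC2 effect was 4.21 and the cDC1 effect 1.53, a difference of -2.68 ± 0.32 (SE, limma adjusted p = 0.0038). Sema4a, a semaphorin that acts on T cells, rose from 57.5 and 28.6 to 143 and 214 in cDC1s and from 4.71 and 4.54 to 67.5 and 94 in cDC2s, with a difference of -1.76. Itgae, which encodes the CD103 integrin chain of cDC1s, rose from 14.6 and 4.67 to 141 and 228 in cDC1s. In cDC2s it went from 0.0289 and 0.0035 to 1.95 and 2.06, and its difference was 2.70 (95% interval 1.39 to 4.004, limma adjusted p = 0.027). Olfm1 and Sema4a rose more in cDC2s, where their control level was the lower. The larger rise of Itgae in cDC1s depended on the pseudocount. With one of 0.1 its effects were 4.42 in cDC1s and 4.19 in cDC2s and the difference 0.24 (limma adjusted p = 0.87). With one of 5 the effects were 3.74 and 0.48 and the difference 3.26 (limma adjusted p = 0.0017). The other 3 were Tcea3, with a difference of 2.28, St6gal1, a sialyltransferase gene, with 1.38, and Cd300lg with -1.46. Of the 6, Olfm1, Tcea3, St6gal1 and Cd300lg were chosen for mention after their values were seen. The call of Itgae was lost without control cDC2s replicate 1, GM-CSF cDC1s replicate 2 or either GM-CSF cDC2 library, and that of Sema4a without either control cDC2 library, GM-CSF cDC1s replicate 1 or GM-CSF cDC2s replicate 2. With a pseudocount of 0.1 Cd300lg was at -0.94 (limma adjusted p = 0.16), and with one of 5 Sema4a and St6gal1 did not pass. The call of Cd300lg was lost without GM-CSF cDC1s replicate 1 or GM-CSF cDC2s replicate 2, and that of St6gal1 under 6 of the 8 omissions.

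**Figure D2:**
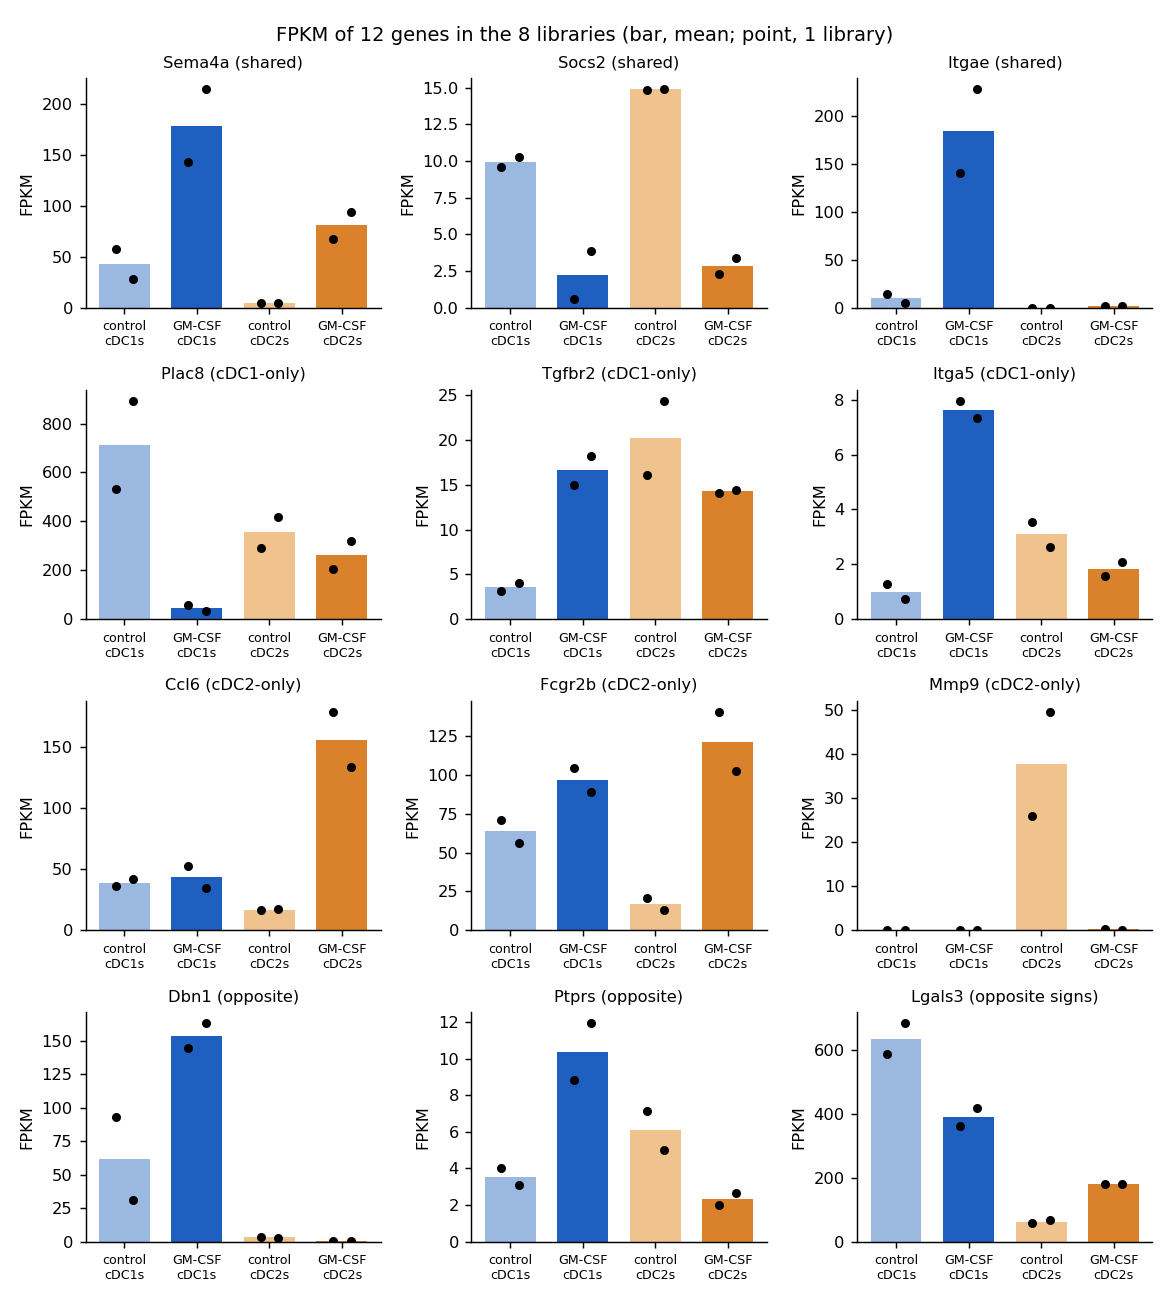
FPKM of 12 genes in the 8 cDC libraries, with its own y axis from 0 for each gene. Bars are means of the 2 libraries of a group and points are single libraries. Socs2 was lower in the treated libraries of both subsets, Plac8 fell only in cDC1s, Ccl6 rose only in cDC2s, and the 2 subsets moved apart for Dbn1 and Ptprs.

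The cDC1-only class held 264 genes that rose and 96 that fell. In 271 of the 360 the 95% interval of the cDC2 effect lay inside -1 to 1. The class median of the cDC1 effect was 1.37 in size, and the median cDC2 effect, signed by the cDC1 direction, was -0.13. The 264 risen genes had long transcripts, with a median of 4042 nt, and the 96 fallen genes short ones, with a median of 1170 nt, against 2708 nt over all genes tested. With the length trend removed, 44 of the 264 and 21 of the 96 were still in the class. The part of the control cDC1 libraries in this was not tested. The class count was 1670 without control cDC1s replicate 1, 212 without control cDC2s replicate 1, 187 without GM-CSF cDC1s replicate 2, and 186 and 148 when replicate 1 or replicate 2 of the GM-CSF cDC2s was left out. Passing without each library in turn, with the length correction and with quantile normalization was a condition for naming the genes of the next 3 paragraphs. Their passing there is thus no separate support. In the fit of the 8 cDC libraries alone their limma adjusted p was 0.19 (Gbp2b) to 0.27 (Ptgis).

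Tgfbr2, a subunit of the receptor for TGF-beta, rose from 3.09 and 4 FPKM to 15 and 18.2 in cDC1s, and was at 16.1 and 24.4 in control cDC2s and 14.1 and 14.4 in GM-CSF cDC2s. Its level in treated cDC1s thus came to the range of the cDC2 libraries. The difference was 2.41 ± 0.33 (SE, 95% interval 1.68 to 3.13, limma adjusted p = 0.005). Kdm4b, a histone demethylase gene, showed the same order of levels, from 1.39 and 1.82 to 11.9 and 13 in cDC1s beside 9.61 to 13.7 in the 4 cDC2 libraries. Mfsd6, a transporter-like membrane protein gene, rose from 4.5 and 3.35 to 19.7 and 15.1 in cDC1s, with a difference of 2.35. Gbp2b, a guanylate-binding protein of the interferon response, went from 0 and 0.614 to 11.5 and 18.4 FPKM in cDC1s and stayed at 0 to 0.222 in the 4 cDC2 libraries. Its difference of 3.49 was the highest of the class by the naming rule, but Gbp2b belongs to a family of similar genes among which reads can be split. It was 1 of 15 guanylate-binding proteins and related GTPases tested, and the only one with a difference that passed, beside 6.84% of all genes.

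Sphk2, a sphingosine kinase, and Sdc3, a heparan sulfate proteoglycan of the syndecan family, also rose in cDC1s, while their cDC2 values leaned the other way. Sphk2 went from 7.55 and 4.34 FPKM to 23.3 and 28.9 in cDC1s and from 19.4 and 17.1 to 7.92 and 7.48 in cDC2s. Its cDC1 effect was 2.00 and its cDC2 effect, which did not pass, -1.14. Sdc3 went from 30.3 and 12.2 to 72.3 and 104 in cDC1s and from 29.4 and 22.1 to 14.8 and 15.4 in cDC2s. In both genes the treated and control libraries did not overlap in either subset, which in cDC1s was a condition for naming them.

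Plac8, which encodes a small cysteine-rich protein of myeloid and lymphoid cells, showed the steepest cDC1-only fall among the named genes. It was at 533 and 894 FPKM in control cDC1s and 56.7 and 34.2 in GM-CSF cDC1s, beside 293 and 420 in control cDC2s and 206 and 318 in GM-CSF cDC2s. The difference was -3.49 ± 0.63 (SE, 95% interval -4.84 to -2.13, limma adjusted p = 0.014). Ptgis, the prostacyclin synthase gene, fell from 59.9 and 46.8 to 19 and 10.2 in cDC1s and was at 0.102 to 0.82 in the cDC2 libraries, and its difference did not pass with a pseudocount of 0.1 (limma adjusted p = 0.13). Fam26f, Gemin2 (a member of the complex that assembles spliceosomal RNPs), Nudcd2 and Itpa (an enzyme that clears inosine triphosphate) fell by 1.23 to 1.76 in cDC1s, and their cDC2 effects of 0.46 to 0.72 did not pass.

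The cDC2-only class was nearly even, with 88 genes that rose and 93 that fell. In 115 of the 181 the 95% interval of the cDC1 effect lay inside -1 to 1. Its median effect in cDC2s was 1.502 in size, and the median cDC1 effect in that direction was -0.05. Here too the 2 directions differed in transcript length, with medians of 1795 nt for the risen and 2978 nt for the fallen genes, and 35 and 37 of them were still in the class with the length trend removed. The class held 100 genes without control cDC2s replicate 1, 344 without control cDC2s replicate 2, 77 without GM-CSF cDC1s replicate 1 and 78 without GM-CSF cDC2s replicate 2. Except for the list members Fcgr2b and Tlr7, the genes of the next 3 paragraphs were named on condition of passing the same fits as the cDC1-only genes. In the fit of the 8 cDC libraries alone the limma adjusted p was 0.15 (Ccl6) to 0.26 (Cysltr1), save for Mmp9 at 0.047.

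Mmp9, the gelatinase gene of the matrix metalloproteinases, gave the largest difference among the named genes. It was at 26 and 49.5 FPKM in control cDC2s and 0.22 and 0.197 in GM-CSF cDC2s, and was listed at 0 in all 4 cDC1 libraries. The cDC2 effect was -4.93, and the difference of 4.93 ± 0.34 (SE, limma adjusted p = 6e-05) is the cDC2 fall alone, since there was nothing to lose in cDC1s. Mmp9 was also the single gene that passed in all 3 of the strictest fits, those of the 8 cDC libraries, of the 10 dendritic cell gate libraries and with library weights. Tcf7, the TCF-1 transcription factor gene, fell from 52.5 and 40.8 to 5.44 and 7.31, and Lysmd2 from 67.2 and 60.9 to 9.97 and 8.02. Both stayed at or under 1.36 FPKM in the cDC1 libraries, and with a pseudocount of 0.1 neither difference passed (limma adjusted p = 0.073 and 0.15). Cd72, which encodes a lectin-like receptor known best from B cells, fell from 83.2 and 82.3 to 19.5 and 19.3 in cDC2s and was at 0.746 to 1.07 in cDC1s. Tlr7, the endosomal sensor of single-stranded RNA, fell from 24.1 and 21.9 to 4.79 and 5.92, with a difference of 1.94 (limma adjusted p = 0.016, and 0.073 with the length correction). All of these are genes that the control cDC1s all but lacked, so no fall could be seen in cDC1s.

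The genes that rose only in cDC2s were mostly expressed in cDC1s as well. Ccl6, a CC chemokine, was at 36.5 and 41.7 FPKM in control cDC1s and 53 and 34.6 in GM-CSF cDC1s, and rose from 16.5 and 17.3 to 179 and 134 in cDC2s. The 2 treated cDC2 libraries lay above all 6 others. The difference was -2.99 ± 0.32 (SE, 95% interval -3.69 to -2.28, limma adjusted p = 0.0021). Fcgr2b, the inhibitory Fc gamma receptor, rose from 21.1 and 12.9 to 140 and 102 in cDC2s and was at 71 and 56.2 and then 104 and 88.8 in cDC1s, with a difference of -2.19. Control cDC2s were below control cDC1s for both genes, and after GM-CSF the cDC2 libraries were above the cDC1 libraries for Ccl6 and overlapped them for Fcgr2b. Gp2, a surface glycoprotein that binds bacterial fimbriae, rose from 4.5 and 8.8 to 47.3 and 128 in cDC2s beside 17.5 to 35.9 in the cDC1 libraries. Cysltr1, the receptor for cysteinyl leukotrienes, rose from 0.192 and 1.21 to 11.5 and 16.5 in cDC2s and was at 3.98 and 7.63 and then 9.76 and 10.8 in cDC1s, where the treated libraries also lay above the controls but the effect of 0.78 did not pass. Knstrn, which encodes a kinetochore and spindle protein, rose from 3.62 and 5.01 to 27.6 and 33.1, beside 12.7 to 19.2 in cDC1s. Hacd4, an enzyme gene of fatty acid elongation, was the exception, rising from 1.54 and 1.92 to 14 and 14.7 in cDC2s while the cDC1 libraries were at 0.357 to 0.743.

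S100a10, the partner of annexin A2, rose from 28 and 35 FPKM to 126 and 174 in cDC2s, and went from 16.6 and 38.8 to 15.7 and 11 in cDC1s, where the effect of -0.91 did not pass (limma adjusted p = 0.052). The difference was -3.11 ± 0.45 (SE, limma adjusted p = 0.0057). Of 11 S100 and metallothionein genes tested it was the only one with a difference that passed, beside 6.84% of all genes.

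Opposite responses were few. Both effects passed with unlike signs for 4 genes, Dbn1, Ptprs, Sh3bp4 and Zkscan7, and each rose in cDC1s and fell in cDC2s. The count was 18 without control cDC1s replicate 1, 16 without control cDC2s replicate 2, 0 without control cDC2s replicate 1, and 2 without either GM-CSF cDC2 library. Dbn1, the actin-binding drebrin gene, went from 93.2 and 31.1 FPKM to 145 and 163 in cDC1s and from 3.58 and 2.83 to 0.356 and 0.372 in cDC2s. The groups did not overlap in either subset, which was a condition for naming it. The difference was 3.11 (95% interval 1.95 to 4.27, limma adjusted p = 0.012). Ptprs, a receptor tyrosine phosphatase that binds proteoglycans, went from 4.01 and 3.09 to 8.82 and 11.9 in cDC1s and from 7.12 and 5.03 to 2.01 and 2.67 in cDC2s. The order of the subsets was thereby turned round, with control cDC2s above control cDC1s and treated cDC2s below treated cDC1s. Sh3bp4, of receptor endocytosis, had a difference of 2.56 and Zkscan7, a zinc finger gene, of 2.36, and these 2 were named after their values were seen. Zkscan7 was low in cDC1s, from 0 and 0.62 FPKM to 2.26 and 1, and fell from 8.32 and 4.68 to 2.065 and 1.63 in cDC2s. With a pseudocount of 5 its cDC1 and cDC2 effects were 0.32 and -0.73, and those of Dbn1 were 1.41 and -0.61. With the length trend removed, 1 of the 4 genes kept both calls.

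A wider count took every difference that passed and whose effects had unlike signs and a size of at least 0.5 each. It held 205 genes, 137 with a cDC1 rise and cDC2 fall and 68 with the reverse. Of these the cDC1 effect passed in 62, the cDC2 effect in 35 and neither in 112, so most are opposite in sign only. Lgals3, the galectin-3 gene, went from 585 and 682 FPKM to 360 and 418 in cDC1s and from 59.3 and 67 to 180 and 181 in cDC2s. The gap between the subsets narrowed from both sides, and the difference was -2.20 ± 0.29 (SE, limma adjusted p = 0.004). Nucb2, a calcium-binding nucleobindin gene, did the same, from 45.9 and 59.6 to 28.8 and 28.2 in cDC1s and from 5.41 and 6.09 to 16.7 and 12.4 in cDC2s. Pmf1, which encodes a kinetochore protein, went from 51.1 and 72.2 to 38.5 and 36.3 and from 22.6 and 22.6 to 39.8 and 65.7. Map4k5, a kinase gene, and Znfx1, a helicase that senses viral RNA, moved the other way, with cDC1 effects of 0.75 and 1.23 and cDC2 effects of -1.44 and -0.92.

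Of 36 mitotic genes, all tested, 20 rose in cDC1s and 31 in cDC2s, beside 10.4% and 3.21% of all genes that rose, and none fell. The median effect was 1.07 in cDC1s and 1.98 in cDC2s, and the median difference -0.79. The difference passed for 8, all lower in cDC1s (Ccnb2, Cdk1, Aurka, Cenpa, Birc5, Ube2c, Cdca8 and Nuf2), beside 2.59% of all genes. Of 36 DNA replication genes, all tested, 9 fell and 0 rose in cDC1s, beside 4.41% and 10.4% of all genes. In cDC2s 1 rose (Rrm2) and 0 fell, beside 3.21% and 2.06%. The median effect was -0.48 in cDC1s and 0.43 in cDC2s, and the median difference was -1.001. The difference passed for 4, all lower in cDC1s (Rrm2, Tk1, Prim1 and Rfc4), beside the same 2.59%. Thus 18 mitotic genes were shared rises, beside 1.25% of all genes in the shared class. No replication gene was shared, which is little to go by at that share in a list of 36.

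In Ccnb2, the cyclin B2 gene, the level went from 47 and 78.9 FPKM to 106 and 130 in cDC1s and from 40.3 and 41.1 to 220 and 286 in cDC2s. The treated cDC2 libraries lay above all others. The difference was -1.66 (95% interval -2.40 to -0.91, limma adjusted p = 0.021). Cenpa, the centromeric histone gene, went from 46.8 and 65.7 to 81.2 and 87 in cDC1s and from 42.1 and 30.3 to 148 and 188 in cDC2s. Cdk1, the mitotic kinase, was at 18.7 and 32.1 and then 16.3 and 25.3 in cDC1s, which overlap, and rose from 7.62 and 10.6 to 22.1 and 44.6 in cDC2s. Cdc20, the activator of the anaphase-promoting complex, rose in both, from 35.8 and 54.7 to 86.2 and 128 and from 35 and 34.2 to 146 and 256, and its difference of -1.22 did not pass (limma adjusted p = 0.073).

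Among the replication genes, Rrm2, the small subunit of ribonucleotide reductase, was at 73.7 and 56.8 FPKM and then 42.5 and 72.8 in cDC1s, and rose from 64 and 53.2 to 122 and 193 in cDC2s. Rfc3, of the clamp loader, fell from 19.8 and 28.7 to 5.26 and 11 in cDC1s and was at 14.4 and 15.1 and then 10.1 and 19.7 in cDC2s. Its difference of -1.47 did not pass (limma adjusted p = 0.08). Pcna, the sliding clamp, fell from 115 and 191 to 69.6 and 65.1 in cDC1s beside 99.8 to 110 in the cDC2 libraries. Mcm7, of the replicative helicase, was at 66.2 and 52.5 and then 31.8 and 66.4 in cDC1s and 70.6 and 82.7 and then 88.8 and 172 in cDC2s, and passed in neither subset nor in the difference. Replicate 2 of the treated libraries was the higher for most of these genes. Summed over the replication list, it was at 958 against 534 FPKM in cDC1s and 2112 against 1091 in cDC2s, and the mitotic sum was 1635 against 1158 and 4049 against 2412.

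With the 8 cDC libraries alone no difference passed in either list, and the mitotic rises were 1 in cDC1s and 6 in cDC2s with 0 shared, and the replication falls in cDC1s 0. With library weights the mitotic rises were 7 and 29 with 6 shared, and with the 10 dendritic cell gate libraries 9 and 22 with 7 shared, again with no difference that passed in either list. The replicate block gave 12 and 9 differences. The counts also moved with single libraries. The 8 mitotic differences became 0 without GM-CSF cDC1s replicate 1 or GM-CSF cDC2s replicate 2, 3 without control cDC2s replicate 1, and 5 without either second control replicate, and the 4 of replication became 0 without control cDC2s replicate 1, GM-CSF cDC1s replicate 1 or GM-CSF cDC2s replicate 2. Those 4 were 1 without control cDC1s replicate 2, 2 without control cDC2s replicate 2, 7 without GM-CSF cDC1s replicate 2, 10 without GM-CSF cDC2s replicate 1 and 12 without control cDC1s replicate 1. The rises of mitotic genes numbered 12 and 9 in cDC1s without control cDC1s replicate 1 and without GM-CSF cDC1s replicate 2, and 20 in cDC2s without GM-CSF cDC2s replicate 2. The 18 shared mitotic genes were 7 without GM-CSF cDC1s replicate 2, 11 without GM-CSF cDC2s replicate 2 and 12 without control cDC1s replicate 1. The 9 replication falls in cDC1s were 1 without control cDC1s replicate 2 and 2 without GM-CSF cDC1s replicate 1. With the length trend removed, 1 difference passed in each list (Cdk1 and Rrm2), while the medians were -1.04 and -1.01. Over the omissions of 1 library the median difference ranged from -0.516 to -1.18 for mitosis and -0.589 to -1.39 for replication.

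**Figure D3:**
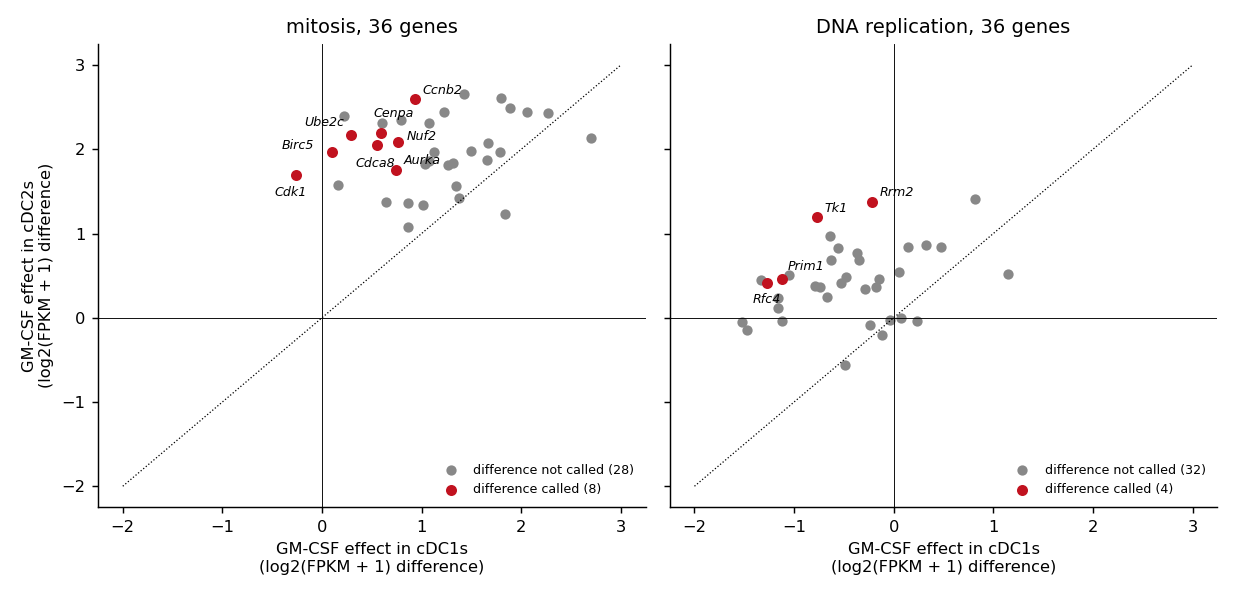
GM-CSF effect in cDC1s (x axis) against that in cDC2s (y axis), in log2(FPKM + 1), for 36 mitotic genes (left) and 36 DNA replication genes (right), 1 point a gene. Red points mark the 8 and 4 genes with a difference that passed, and all of them lie above the dotted line of equal effects. Mitotic genes lie mostly at positive values on both axes and replication genes mostly left of 0 on the x axis.

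The promoters of the 2 lists differed in sequence. In the RefSeq windows from 250 bases before to 50 after the start of each gene (GRCm38.p6, 9009 of the 11335 genes matched, any window of a gene counted, both strands searched), the CHR letters TTTGAA were in 22 of 31 mitotic genes (71%), 4 of 30 replication genes (13.3%) and 14.9% of all genes. The CCAAT letters were in 25 of 31 (80.6%), 17 of 30 (56.7%) and 43.6%. An E2F site, taken as TTTGGCGC, TTTCGCGC, TTTCCCGC or TTTGCCGC, was in 1 of 31 (3.23%), 12 of 30 (40%) and 4.96%. By class, the CHR letters were in 34.9% of the shared, 17.3% of the cDC1-only and 27.1% of the cDC2-only genes. The shared and cDC2-only classes hold mitotic genes of the list, so these shares are not separate from it. The letters TTCNNNGAA, which STAT proteins can bind, were in 5.5% of the shared genes against 8.23% of all genes. The windows of 3 mitotic genes and of 2 replication genes are shown because they carry these letters, with the CHR and CCAAT letters of the mitotic windows and the E2F letters of the replication windows in capitals, on either strand.
Ccnb2, chr9:70421505-70421804, minus strand: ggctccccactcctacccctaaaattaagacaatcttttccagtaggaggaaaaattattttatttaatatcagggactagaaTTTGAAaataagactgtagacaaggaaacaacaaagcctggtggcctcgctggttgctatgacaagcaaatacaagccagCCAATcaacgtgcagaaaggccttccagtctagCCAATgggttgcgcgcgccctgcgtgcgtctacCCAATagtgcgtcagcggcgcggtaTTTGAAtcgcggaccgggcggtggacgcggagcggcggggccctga
Cenpa, chr5:30666636-30666935, plus strand: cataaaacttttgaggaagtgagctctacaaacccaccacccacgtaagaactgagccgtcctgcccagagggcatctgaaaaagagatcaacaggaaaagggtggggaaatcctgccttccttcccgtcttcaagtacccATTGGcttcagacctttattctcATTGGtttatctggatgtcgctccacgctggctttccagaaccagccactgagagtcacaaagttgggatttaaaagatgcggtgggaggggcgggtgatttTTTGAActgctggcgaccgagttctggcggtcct
Cdc20, chr4:118437294-118437593, minus strand: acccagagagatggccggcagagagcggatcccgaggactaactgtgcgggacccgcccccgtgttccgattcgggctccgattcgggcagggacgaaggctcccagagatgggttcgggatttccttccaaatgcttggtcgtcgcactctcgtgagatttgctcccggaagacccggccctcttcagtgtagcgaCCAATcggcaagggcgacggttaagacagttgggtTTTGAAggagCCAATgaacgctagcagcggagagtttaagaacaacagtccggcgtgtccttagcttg
Rfc3, chr5:151651159-151651458, minus strand: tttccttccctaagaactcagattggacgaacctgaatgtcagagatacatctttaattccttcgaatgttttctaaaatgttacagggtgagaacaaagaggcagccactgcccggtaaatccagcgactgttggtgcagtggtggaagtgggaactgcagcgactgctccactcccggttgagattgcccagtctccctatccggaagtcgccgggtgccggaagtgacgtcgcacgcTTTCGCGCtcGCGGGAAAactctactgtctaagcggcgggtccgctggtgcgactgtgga
Mcm7, chr5:138171834-138172133, minus strand: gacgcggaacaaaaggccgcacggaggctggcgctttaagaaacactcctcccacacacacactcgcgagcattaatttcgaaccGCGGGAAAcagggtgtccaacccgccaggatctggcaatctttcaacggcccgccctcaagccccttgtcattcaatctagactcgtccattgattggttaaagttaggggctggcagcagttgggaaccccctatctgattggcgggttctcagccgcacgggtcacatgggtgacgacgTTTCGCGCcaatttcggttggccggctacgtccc
Ccnb2 has 2 CHR and 3 CCAAT matches, Cenpa and Cdc20 have 1 and 2, and Rfc3 and the Mcm7 window shown have 2 E2F matches each. The matches are letters in a window and not shown to be bound.

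Integrins and adhesion genes were, of the lists, those with the most positive differences. The difference passed for 7 of 21, all positive, beside 4.24% of all genes, with a list median of 0.97 (0.67 with the length correction, under which 2 were higher and 1 lower). The 7 were 11 without control cDC1s replicate 1, 4 without control cDC2s replicate 1, 2 without GM-CSF cDC1s replicate 2, and 3 and 2 when replicate 1 or replicate 2 of the GM-CSF cDC2s was left out. Itga5, the alpha chain of the fibronectin receptor, went from 1.26 and 0.742 FPKM to 7.97 and 7.33 in cDC1s and from 3.55 and 2.64 to 1.57 and 2.08 in cDC2s, with a difference of 2.65. Itgal, the LFA-1 alpha chain, rose from 19.1 and 13 to 60.9 and 71.7 in cDC1s and was at 24.1 to 35.4 in the cDC2 libraries. Itgb7, the beta chain that pairs with CD103, rose from 99.4 and 63.6 to 346 and 451 in cDC1s, and was at 158 and 228 and then 304 and 402 in cDC2s. Its difference of 1.42 passed (limma adjusted p = 0.04), though the treated cDC2 libraries also lay above their controls. Itgax, the CD11c gene used in the sort, went from 62.6 and 27 to 105 and 128 in cDC1s and from 169 and 222 to 155 and 162 in cDC2s. Itga6 had a difference of 1.75, and Epcam of 1.40 through a cDC2 fall, and Itgae, described above, was the seventh. Itga5 and Itgal passed in all 8 omissions, and Itgae, Itgax, Itgb7, Itga6 and Epcam lost the call in 2 to 6 of them.

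In the list of the GM-CSF receptor, STAT5 and SOCS genes the difference passed for 3 of 22, Jak2, Stat3 and Ccnd2, all positive, beside 4.24% of all genes, and 2 genes, Socs2 and Ccnd1, fell in both subsets. Stat3, the transcription factor of the IL-6 and IL-10 families, rose from 37.9 and 24.8 FPKM to 69.2 and 78.9 in cDC1s and went from 89.3 and 104 to 75.1 and 77.1 in cDC2s, with a difference of 1.58. Jak2 was at 24.4 and 23.7 and then 49.2 and 30.4 in cDC1s, and at 83.4 and 90.6 and then 57.5 and 37.4 in cDC2s, and neither effect passed. Ccnd2, cyclin D2, fell from 25.7 and 28.5 to 4.25 and 3.5 in cDC2s, where control cDC1s had 1.05 and 2.36. With the length correction Stat3 kept an adjusted p of 0.048, and Jak2 and Ccnd2 were at 0.09 each (limma). Stat3 passed in all 8 omissions, and Jak2 and Ccnd2 failed in 4 and 3.

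Some identity genes of the subsets differed in their response. Beside 6.84% of all genes called in either direction, of 18 cDC1 genes the difference was higher in cDC1s for 3 and lower for 1, of 18 cDC2 genes higher for 2 and lower for 1, and of 12 genes of all cDCs higher for 2. Cd207, the langerin gene, rose from 58.4 and 55.9 FPKM to 228 and 236 in cDC1s and stayed at 0 to 0.329 in cDC2s, with a difference of 1.82 (limma adjusted p = 0.0073). Irf8 was at 1420 and 821 and then 1718 and 1684 in cDC1s, and fell from 20.6 and 7.85 to 5.4 and 3.19 in cDC2s. Naaa, a lipid amidase gene of cDC1s, rose in cDC2s from 20.5 and 17.8 to 60.2 and 69.4, far under its 1017 to 1711 in cDC1s. Zbtb46, the transcription factor of cDCs, went from 53.2 and 26.7 to 76.4 and 82.5 in cDC1s and from 86.7 and 122 to 62.5 and 71.8 in cDC2s. Clec4a4 fell in cDC2s with a difference of 1.04. Clec12a, an inhibitory lectin gene, had a difference of -1.49 and Tbx21, the T-bet gene, of 1.42, with neither effect passing. Cd207 alone of the genes in this paragraph passed in all 8 omissions, and the others failed in 4 to 6. With a pseudocount of 0.1 the difference of Cd207 was 1.07 and did not pass (limma adjusted p = 0.43).

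Antigen presentation and activation genes were set beside the 6.84% of all genes with a difference that passed. None of 14 MHC class II presentation, 15 costimulation and coinhibition, 18 NF-kappaB, 12 heat shock and 13 lipid efflux genes passed, and the median differences of the first 3 lists were -0.39, 0.61 and 0.58 (0.08, 0.17 and 0.25 with the length correction). H2-Ab1, the MHC class II beta chain gene, had a difference of -0.20 (95% interval -0.87 to 0.48). Of 25 inflammatory mediators 3 passed, Mmp9 with a positive difference, through its cDC2 fall, and Ccl6 and Ebi3 with a negative one. Of 21 toll-like receptors and adaptors 2 passed, Tlr7 through its cDC2 fall and Tlr13 through a cDC1 rise. Tlr13, the sensor of bacterial ribosomal RNA, rose from 7.46 and 7.37 to 22.8 and 39 in cDC1s, reaching the 20.5 to 45 of the cDC2 libraries, and its difference of 2.37 had a limma adjusted p of 0.015 (0.058 with the length correction). Of 28 endocytic receptors 5 passed, Fcgr2b, Cd209e and Clec12a with a negative difference and Cd207 and Clec4a4 with a positive one, the last through a cDC2 fall. Single genes passed in the lists of chemokine receptors (Cx3cr1, 2.08), type 2 response (Egr2, 2.32), interferon-stimulated genes (Ifit2, 1.55), glycolysis (Slc2a3, 1.34), lysosome (Lipa, 1.20) and MHC class I presentation (Sec61b, -1.30). All 6 of these lost the call with the length correction (limma adjusted p of 0.056 for Egr2 to 0.24 for Ifit2), and Egr2 and Ifit2 also in 7 of the 8 omissions. Of the immediate early genes Klf2 (1.78) and Egr2 passed, and of the unfolded protein response genes Eif2ak3 (1.04) and Manf (-1.14). With the length correction Eif2ak3, Manf, Ebi3 and Cd209e did not pass (limma adjusted p of 0.15, 0.058, 0.26 and 0.061). The call of Klf2 depended on which library was left out.

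**Figure D4:**
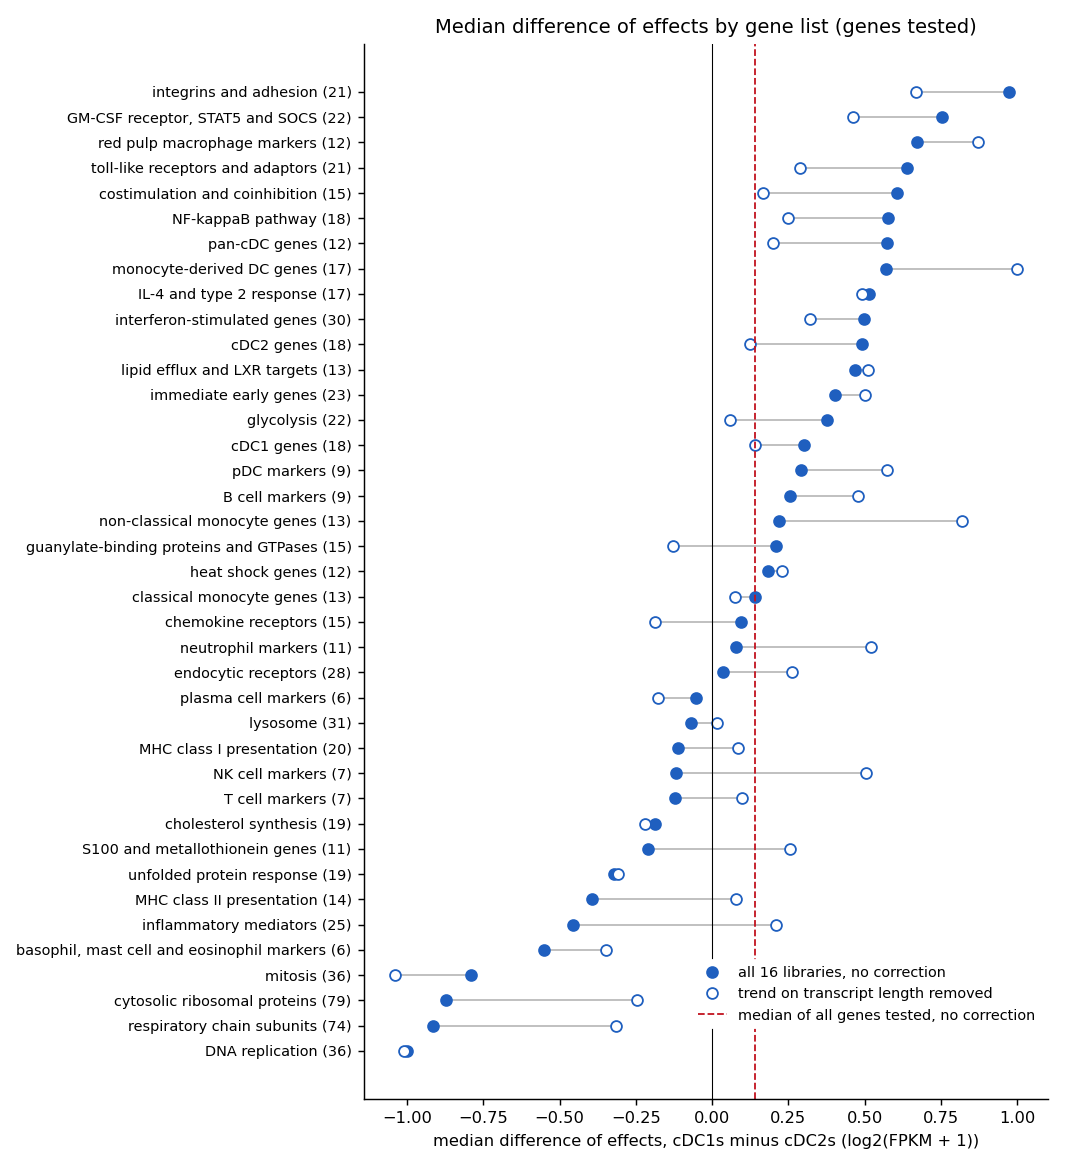
Median difference of the GM-CSF effects, cDC1s minus cDC2s, in log2(FPKM + 1) for each gene list with at least 6 genes tested (number in brackets). Filled points are values without correction, open points those with the trend on transcript length removed, and the dashed line is the median of all genes, 0.14. DNA replication and mitosis lie lowest with the correction and integrins and adhesion near the top, and the ribosomal and respiratory lists move most of the way to 0.

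Ribosomal and respiratory chain genes had low medians without many calls. Of 79 cytosolic ribosomal proteins 6 passed, all with a negative difference, beside 2.59% of all genes, with a list median of -0.87, and of 74 respiratory chain subunits 1 passed (Ndufc2, -1.17), with a median of -0.91. In cDC1s 21 and 27 of them fell, beside 4.41% of all genes, and in cDC2s none rose or fell. Their transcripts are short, with medians of 791 and 760.5 nt, and with the length correction the list medians were -0.25 and -0.32. Rpl6 had the adjusted p of 0.028 and, with the correction, 0.19 (limma). More widely, the difference of effects followed transcript length, with a rank correlation of 0.481 over the 11232 genes with a length. In the shortest of 5 equal classes of length 19 genes were called higher and 162 lower in cDC1s, and in the longest 185 and 10. The cDC1 effect carried this relation (rho 0.458) and the cDC2 effect did not (rho -0.0878). With the trend removed 246 differences passed, 187 of them among the 775.

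**Figure D5:**
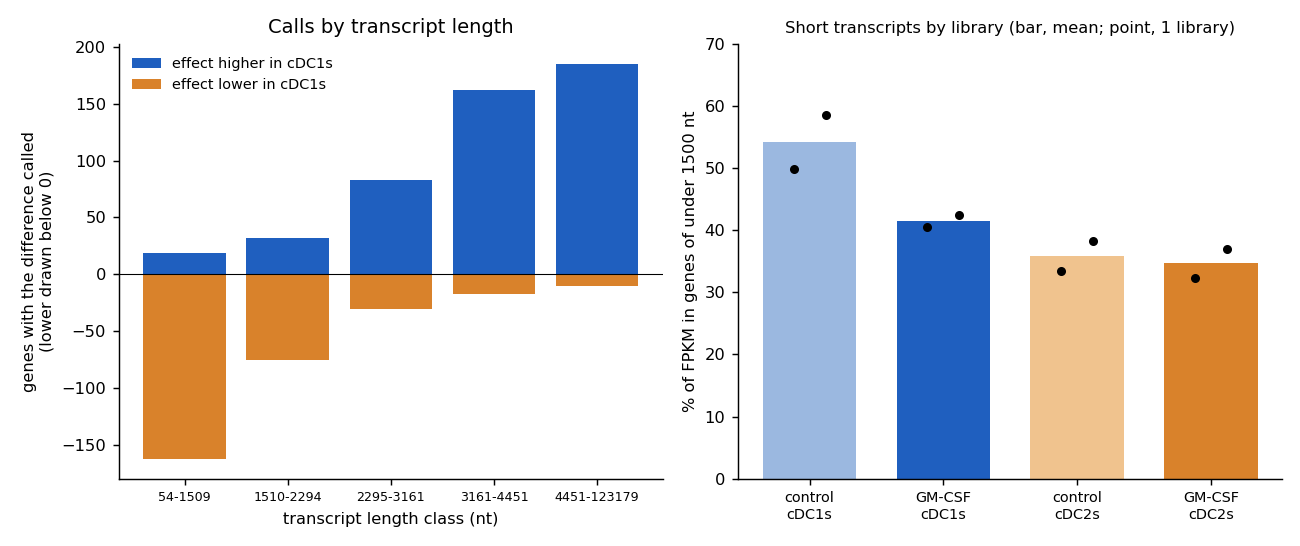
Left, number of genes with a difference that passed in each of 5 classes of transcript length (x axis, nt), those with the higher effect in cDC1s drawn upward and those with the lower effect downward. Right, percentage of the FPKM total in genes with transcripts of under 1500 nt in the 8 cDC libraries, bars as means and points as libraries. Calls go from 19 and 162 in the shortest to 185 and 10 in the longest class, and the control cDC1 libraries have the highest short shares, 49.9% and 58.6%.

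Markers of other cells were measured beside these results, and their part in them was not tested. The counts stand beside 6.84% of all genes with a difference that passed, and at that share lists this short can hold none. The 13 neutrophil markers summed to 0.62 to 7.49 FPKM in the 4 cDC1 libraries and 5.34 to 16.5 in the cDC2 libraries, with no difference that passed among 11 tested. T cell markers (7 tested), NK cell (7), red pulp macrophage (12), erythroid (3), plasma cell (6) and classical monocyte (13) lists had none either, and no platelet marker was tested. Basophil, mast cell and eosinophil markers summed to 0.23 to 4.96 FPKM in cDC1s and went from 5.6 and 8.65 to 30.1 and 12.6 in cDC2s, with Epx at 0 throughout. Siglecf was the 1 of 6 that passed, at 0.809 and 0.688 and then 5.71 and 4.41 in cDC2s. B cell markers were at 41 to 55.6 FPKM in cDC1s and 66 to 108 in cDC2s, with Pax5 at 0 to 0.0896 and with Fcer2a and Blk higher in the difference through falls in cDC2s. Of the plasmacytoid dendritic cell markers Siglech and Lair1 did the same. Of 13 non-classical monocyte genes Cx3cr1, Ace and Itgal passed, and the list sum went from 1885 and 1423 to 1115 and 322 FPKM in cDC2s and from 684 and 444 to 625 and 544 in cDC1s. Of 17 monocyte-derived dendritic cell genes Csf1r and Mmp12 had a positive and Fcgr2b a negative difference. Csf1r went from 6.58 and 1.09 to 11.2 and 7.87 FPKM in cDC1s and from 65.4 and 74.4 to 36.3 and 39.6 in cDC2s, and Mmp12 from 0.159 and 0.243 to 3.91 and 1.65 and from 61.8 and 48.4 to 39.9 and 36.3. With the length correction Csf1r, Cx3cr1, Ace, Itgal, Siglech and Lair1 did not pass (limma adjusted p of 0.0503 to 0.15). With a pseudocount of 0.1 Csf1r, Fcer2a, Blk, Lair1 and Siglecf did not pass. With one of 5 Ace, Cx3cr1, Siglech, Fcer2a and Siglecf did not. Over the 8 cDC libraries Ace was at 0.0362 to 1.3 FPKM, Siglech at 0 to 2.33 and Cx3cr1 at 0 to 5.99. Mmp12 and Fcgr2b passed in each of these fits.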

How the data were processed

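RNA of sorted splenic populations was amplified with an ultra-low input SMARTer kit and sequenced on a NovaSeq. Per the study's methods and the submitters' processing notes, the authors used bcl2fastq 1.8.4, HISAT2 2.1.0, StringTie 1.3.4d and mouse build mm10 and deposited FPKM values per gene. The table holds no read counts, so depth was not worked out here. The 8 cDC libraries had 9388 to 10242 genes at 1 FPKM or more.

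From these values 11335 of 24532 genes with at least 1 FPKM in 2 libraries were tested on log2(FPKM + 1) with limma 3.58.1 (R 4.3.3, trend) over all 16 libraries in 8 groups, with 8 residual degrees of freedom and Benjamini-Hochberg adjustment. A call needed an adjusted p under 0.05 and a size of at least 1, so fold changes of low genes are understated. Transcript lengths were known for 11232 genes, and the length correction removed a smooth trend on length from each library. The fit of the difference was tried on simulated data in which all groups shared the same spread for a gene. The length correction was not tried in this way. Genes were named, up to 6 per class and direction, by the size of the difference (shared: of the smaller effect) among those with a group mean of at least 10 FPKM, no overlap in a called subset and, outside the shared class, an adjusted p under 0.05 with the length correction, quantile normalization and each library left out. List members with a called difference and the sort-gate genes were added. The members and lists were chosen with earlier results of these data known. Alternatives changed the pseudocount, filter, scaling, libraries, weights, block and minimum fold. Tables and figures used Python 3.11.15, pandas 2.3.3, numpy 2.4.6 and matplotlib 3.10.9. Results for some named genes are not reported here.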

Additional observations from a re-analysis of the deposited data

Results flagged for a closer look

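The GM-CSF effects of cDC1s and cDC2s differed by the test of the difference itself for 775 genes. Among the named genes with effects of unlike sign, the difference (cDC1s minus cDC2s, log2) was 3.14 for Sphk2, 3.11 for Dbn1, 2.83 for Sdc3, 2.39 for Ptprs, 2.19 for Map4k5 and 2.15 for Znfx1. It was -3.11 for S100a10, -2.20 for Lgals3, -2.18 for Gemin2, -2.04 for Nucb2, -1.85 for Nudcd2 and -1.83 for Pmf1. Of these 12 genes, both effects passed for Dbn1 and Ptprs. Groups of 2 libraries are too small to look for single libraries that stand apart.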

How the results depend on the processing

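Calls rested on the pooled spread of all groups and on single libraries, and 2 libraries a group leave wide intervals. Library weights were 0.242 to 0.543 in the 8 cDC libraries and 2.24 to 6.53 in those of P-I, P-III and P-IV. A lower weight stands for a wider spread, so the pooled p-values can be too small for the cDC groups. Fits gave, for differences, cDC1-only, cDC2-only, opposite and shared genes in this order, 459, 171, 95, 0 and 56 with a pseudocount of 5, 2, 1, 1, 0 and 1 with the 8 cDC libraries alone, 2, 1, 1, 0 and 25 with the 10 dendritic cell gate libraries, and 4, 0, 4, 0 and 35 with library weights. The first 3 counts were 246, 89 and 90 with the length correction. Opposite genes were 13 with a pseudocount of 0.1 and 1 with no filter, and with no minimum fold opposite and shared genes were 30 and 244. Leaving out 1 library gave 286 to 2419 differences, 69 to 188 shared, 148 to 1670 cDC1-only, 77 to 344 cDC2-only and 0 to 18 opposite genes. The cause of these shifts was not tested.

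Same-numbered libraries of the 4 groups deviated together with an r of -0.0143 to 0.671, and nothing in the labels pairs them. With the replicate block the counts were 984 differences, 443 cDC1-only, 210 cDC2-only, 5 opposite and 158 shared genes, and with the block and the length correction 400, 140, 151, 4 and 122.

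Differences near 0 changed sign. Plet1 was at -0.79 with a pseudocount of 0.1. Bco2 was at -0.15 with a pseudocount of 5, -0.34 with quantile normalization and -0.053 with median-of-ratios scaling, and Socs2 at -0.22 with a pseudocount of 0.1 and -0.17 and -0.035 with those 2 scalings. With a pseudocount of 5 Cdc25b was at -0.090 and H2-M2 at 0.65. With quantile normalization Apol7c was at 0.34, H2-M2 at 0.095 and H2-Ab1 at 0.13. With the length correction, with or without the replicate block, H2-M2 was at 0.40, Xcr1 at -0.27 and H2-Ab1 at 0.32. Leaving out 1 library gave -0.68 to 0.35 for Nek2, -0.59 to 0.62 for Bco2, -0.88 to 0.10 for Kif20a, -0.85 to 0.28 for Apol7c, -0.79 to 0.76 for H2-M2, -0.26 to 1.39 for Anxa3, -0.71 to 0.89 for Socs2, -0.20 to 1.23 for Nudt17 and -0.20 to 0.70 for Xcr1.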

Other observations

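Zbed5 passed in the fits of the 8 cDC libraries and of the 10 dendritic cell gate libraries but not with all 16 (limma adjusted p = 0.091). It was at 18.6 and 30.5 FPKM in control cDC1s and 0.253 and 0 in GM-CSF cDC1s, and at 0 in 3 cDC2 libraries and 0.0201 in the other. Bmp2, a secreted morphogen, passed with library weights, at 7.92 and 9.46 FPKM in control cDC2s, 0.75 and 0.57 in GM-CSF cDC2s and 0 to 0.0426 in cDC1s. Both were chosen after their values were seen.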
